A study of Mus musculus with 24 samples.

Results

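Foxi1, the forkhead transcription factor of the renal intercalated cells, was followed together with 9 genes of the same cells across 24 mouse kidney RNA-seq libraries. The 10 genes were taken by symbol (Foxi1, Atp6v1b1, Atp6v1c2, Atp6v1g3, Atp6v0d2, Slc4a1, Aqp6, Slc4a9, Slc26a4 and Insrr), and all 10 were found among the 55416 gene IDs of the table of normalized counts. They were selected on their place in intercalated cells with results of these libraries in view, and the choice named the high normalized count of Foxi1 in 1 library, sham Polg+/+ replicate 6. That value is given as a description. Every Foxi1 test given as a result was made without that library. The closing check of alternative settings kept it for Foxi1 too, apart from the fit that left it out, so the Foxi1 values there are descriptions. The results of the other genes are given with and without that library where this mattered.

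The libraries form 4 groups of 6 whole-kidney samples, labelled as biological replicates. They are sham-operated Polg+/+ mice, sham-operated PolgD257A mice, Polg+/+ mice after ischemia reperfusion injury (B-IRI in the labels), and PolgD257A mice after B-IRI. Polg encodes the catalytic subunit of the mitochondrial DNA polymerase, and the D257A change removes its proofreading activity, so that mitochondrial DNA gathers mutations in all tissues. The design text calls the animals littermates and asks how such mutations add to ischemia reperfusion injury. The sources used here give neither strain, sex nor age, and state neither the number of PolgD257A alleles nor the time from surgery to sampling.

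Intercalated cells are acid-base cells scattered among the principal cells of the connecting tubule and collecting duct. They pump protons with a vacuolar proton ATPase (V-ATPase), a rotary pump of a cytosolic V1 and a membrane V0 part, and use kidney-rich versions of several of its subunits. Type A cells secrete acid into the urine and return bicarbonate to the blood through the chloride/bicarbonate exchanger AE1, the product of Slc4a1. Type B and non-A, non-B cells secrete bicarbonate through pendrin, the product of Slc26a4. Foxi1 is required for the formation of these cells, and mice without it lack pendrin and AE1 in the collecting duct and develop distal renal tubular acidosis.

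Reads assigned to genes numbered 16689284 to 26341004 per library, and 17430 genes passed a minimum of 10 normalized counts in 6 or more libraries and were tested. All 10 genes passed this filter, and none was at 0 in any library. Sham Polg+/+ replicate 6 stood apart from the other 5 libraries of its group. It held the highest value of the group for 7 of the 9 genes other than Foxi1. The same held for 5 of 5 podocyte markers, 5 of 5 endothelial markers, 5 of 6 distal convoluted tubule markers and 6 of 8 tested principal cell markers. Of all tested genes 21.1% had their highest value there. Other lists had few, with 1 of 6 red cell markers, 1 of 7 macrophage markers and 3 of 17 widely expressed V-ATPase subunits. It held the lowest value for 5 of 8 proximal tubule markers, beside 3968 of all 17430 tested genes. In B-IRI PolgD257A, replicate 4 was the lowest of its group for 9 of the 10 genes. The share of all genes lowest in that library was not counted. It was the highest for Lcn2, an injury marker (12373 normalized counts, group range 4486 to 12373). For Havcr1, another injury marker, it lay within the group (34450.5 normalized counts, group range 25923.5 to 36062). Among bulk libraries, fewer intercalated cells and less RNA per cell cannot be told apart.

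The promoters of 3 of the 6 genes found in the RefSeq promoter table (GRCm38.p6) are shown because these genes followed different courses below. Foxi1 was low in every group but sham Polg+/+, whereas Atp6v1b1 and Slc26a4 were lowest in injured PolgD257A kidneys. Each sequence runs from 250 to 51 bases before the annotated start, at chr11:34208140-34208339 (minus strand), chr6:83742767-83742966 (plus strand) and chr12:31560035-31560234 (minus strand). Capitals mark the forkhead core TGTTTAC, searched on both strands.
Foxi1: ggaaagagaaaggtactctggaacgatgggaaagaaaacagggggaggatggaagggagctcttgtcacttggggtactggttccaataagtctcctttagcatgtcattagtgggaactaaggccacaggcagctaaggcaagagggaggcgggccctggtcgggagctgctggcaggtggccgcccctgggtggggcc
Atp6v1b1: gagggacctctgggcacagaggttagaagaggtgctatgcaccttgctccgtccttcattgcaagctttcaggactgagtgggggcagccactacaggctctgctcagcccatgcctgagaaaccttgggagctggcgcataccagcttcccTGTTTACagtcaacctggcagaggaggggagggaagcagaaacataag
Slc26a4: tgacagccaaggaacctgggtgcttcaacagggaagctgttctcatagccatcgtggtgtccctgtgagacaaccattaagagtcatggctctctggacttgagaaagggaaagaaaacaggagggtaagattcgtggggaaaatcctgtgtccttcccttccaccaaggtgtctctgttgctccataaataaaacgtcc
The core was found once in these 6 windows, 98 bases before the start of Atp6v1b1, and 2.58% of the 32851 windows of the table hold it. The windows of Atp6v1g3, Atp6v1c2 and Aqp6 do not hold these letters.

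Foxi1 mRNA (ENSMUSG00000047861.3, chr11:34204338-34208089 on the minus strand of GRCm38) was highest in uninjured wild-type kidneys. In the sham Polg+/+ libraries it ran from 537 through a median of 647 to 1044 normalized counts, with a mean of 690.2 ± 181 (SD, n = 6). The highest of the remaining 5 libraries held 683, and their mean was 619 ± 58.2 (SD, n = 5). Each of these 6 values lay above every library of the other 3 groups.

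In sham PolgD257A kidneys Foxi1 held 279, 386 and 423 normalized counts (lowest, median, highest), with a mean of 372 ± 53.6 (SD, n = 6). After B-IRI the Polg+/+ libraries held 328, 387 and 466, with a mean of 394 ± 51.2 (SD, n = 6). The injured PolgD257A libraries held 327, 377 and 438, with a mean of 382 ± 39.2 (SD, n = 6). In descending order the group means were therefore those of sham Polg+/+, of B-IRI Polg+/+, of B-IRI PolgD257A and of sham PolgD257A, and the lower 3 overlapped one another library by library.

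Without sham Polg+/+ replicate 6, Foxi1 was 1.67-fold lower in sham PolgD257A than in sham Polg+/+ (log2 difference -0.74 ± 0.10 SE, limma adjusted p = 0.000351). It was 1.58-fold lower after B-IRI than after sham surgery in Polg+/+ (log2 -0.66 ± 0.10 SE, limma adjusted p = 1.37e-05). With all 24 libraries these differences were -0.87 and -0.78, given as a description. Both comparisons share the sham Polg+/+ libraries and so are not independent of each other.

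In PolgD257A kidneys, B-IRI left Foxi1 0.05 ± 0.10 (SE) log2 units above sham, which did not pass the test (limma adjusted p = 0.695). Between the genotypes after B-IRI the log2 difference was -0.04 ± 0.10 SE (limma adjusted p = 0.801). The response to surgery differed between the genotypes: the interaction was 0.70 ± 0.14 (SE) on the log2 scale (limma adjusted p = 0.00203), and it rests on the same high group.

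**Figure D1:**
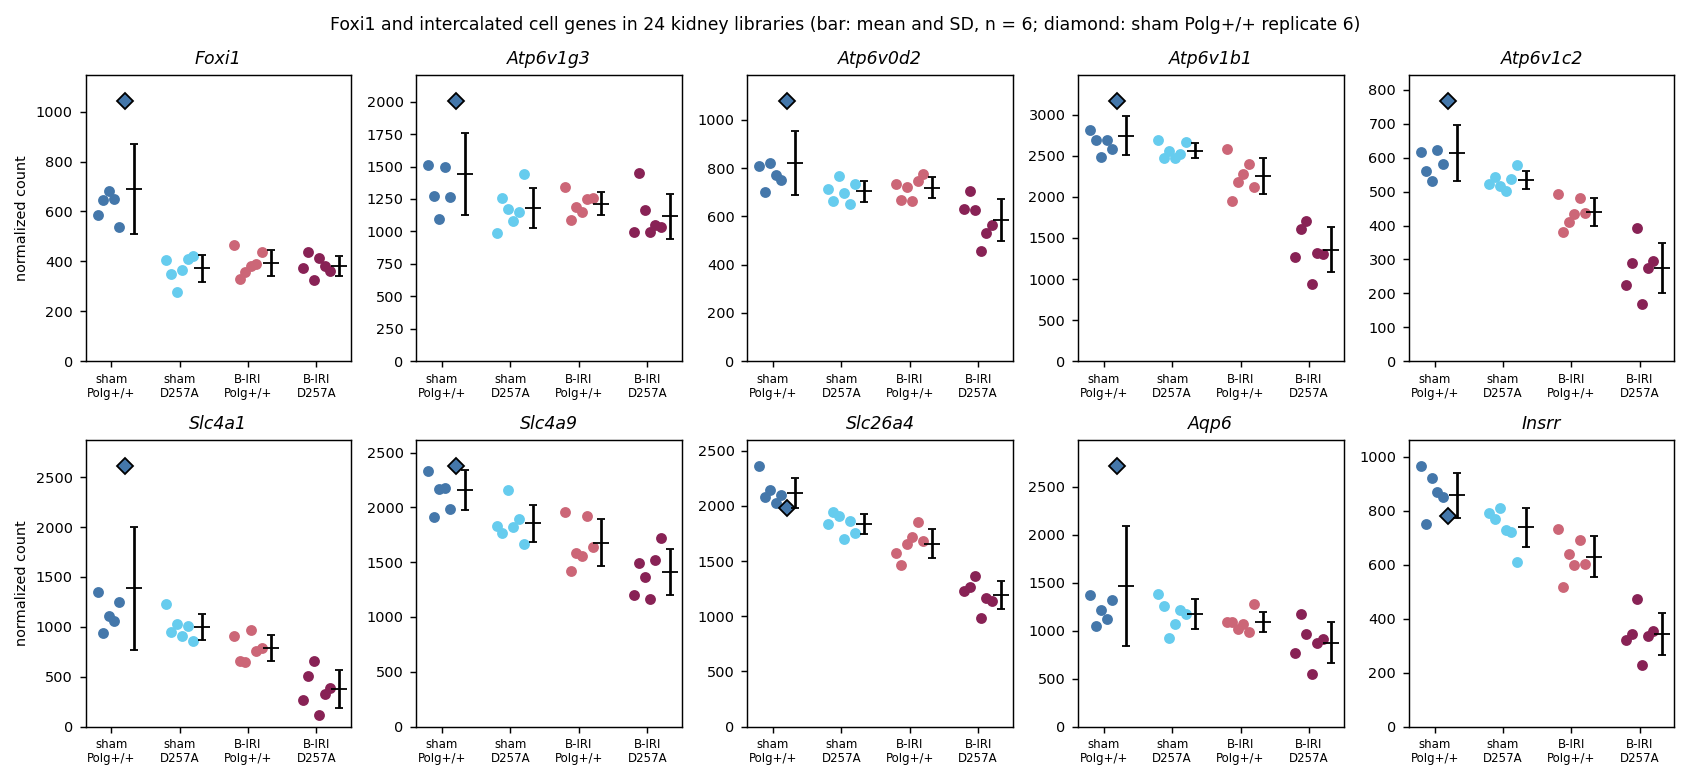
Normalized counts (vertical axes, linear, from 0) of the 10 genes in each of the 24 libraries, by group along the horizontal axis, with group means and SD as bars and sham Polg+/+ replicate 6 as a diamond. The 6 sham Polg+/+ values of Foxi1 (537 to 1044) lie above all others, while Atp6v1b1, Slc26a4 and Insrr are lowest in B-IRI PolgD257A.

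In sham kidneys the genotype difference was rare among all genes. Without sham Polg+/+ replicate 6, 1 of the 10 genes (Foxi1) was called lower in PolgD257A and none higher, against 0.0344% of all tested genes called lower and 0.0688% called higher. By p-value Foxi1 ranked 6 of 17430 there, where 18 genes were called. With all libraries none of the other 9 genes passed, against 0.0402% of all genes called lower and 0.0861% called higher. Their log2 differences ran from -0.39 (Slc4a1) to -0.09 (Atp6v1b1), all negative, with limma adjusted p from 0.312 to 0.890. Without sham Polg+/+ replicate 6 they ran from -0.24 (Insrr) to -0.05 (Atp6v1b1), with Slc4a1 at -0.19 and Aqp6 at -0.06. All were again negative and not called (limma adjusted p 0.302 to 0.961).

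Slc26a4 was the other gene whose sham groups did not overlap, with 1983 to 2363 normalized counts in Polg+/+ and 1700.3 to 1946 in PolgD257A (log2 -0.21 ± 0.06 SE, limma adjusted p = 0.312). Without sham Polg+/+ replicate 6, all PolgD257A libraries lay below all Polg+/+ libraries for these 2 of the 10 genes, against 0.402% of all tested genes. For this gene sham Polg+/+ replicate 6 held the lowest value of its group, so that leaving it out moved the log2 difference to -0.22.

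Atp6v1b1 (chr6:83742990-83758855, plus strand) encodes the B1 subunit of the V1 part, whose loss causes distal renal tubular acidosis with deafness. The 6 sham Polg+/+ libraries held 2490.2 to 3172 normalized counts (median 2693) and the sham PolgD257A libraries 2468 to 2689 (median 2541). After B-IRI the Polg+/+ libraries held 1949.6 to 2586 (median 2231) and the PolgD257A libraries 942 to 1707 (median 1309). The sham groups overlapped in part, and the injured PolgD257A libraries all lay below every other library.

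After B-IRI Atp6v1b1 was 1.22-fold lower than in sham in Polg+/+ (log2 -0.28 ± 0.09 SE, limma adjusted p = 0.0179) and 1.92-fold lower in PolgD257A (log2 -0.94 ± 0.09 SE, limma adjusted p = 3.08e-09). The call in Polg+/+ was lost without B-IRI Polg+/+ replicate 2 (adjusted p = 0.0512), where the log2 difference was -0.24. The interaction was -0.66 ± 0.13 SE (limma adjusted p = 0.00178). The authors' deposited table gives Atp6v1b1 a shrunken log2 fold change of -0.707 (SE 0.0991), whose sign follows PolgD257A against Polg+/+ after B-IRI, where the value found here was -0.75 ± 0.09 SE.

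Atp6v1c2 (chr12:17284721-17329359, minus strand) encodes the C2 subunit, which holds V1 and V0 together. Its sham values were 532 to 769 normalized counts in Polg+/+ (median 599) and 502 to 578 in PolgD257A (median 529.6), falling to 381 to 494 (median 436) and 169.5 to 391 (median 283) after B-IRI. Neither genotype's injured libraries overlapped its sham libraries. The fall was -0.48 ± 0.12 SE on the log2 scale in Polg+/+ (limma adjusted p = 0.00329) and -1.001 ± 0.12 SE in PolgD257A (limma adjusted p = 1.18e-07).

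The interaction of Atp6v1c2, -0.53 ± 0.18 SE, passed narrowly (limma adjusted p = 0.0420). The call was lost in 14 of 24 fits with 1 library left out (adjusted p 0.0508 to 0.0808), namely sham Polg+/+ replicates 1 to 5, sham PolgD257A replicates 1, 2, 5 and 6, B-IRI Polg+/+ replicates 1, 4 and 5 and B-IRI PolgD257A replicates 1 and 4. Over all 24 such fits the log2 value ran from -0.64 to -0.40. The gene overlaps Pdia6 on the opposite strand, and whether the counting used the strand is not given in the sources used here.

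Atp6v1g3 (chr1:138273738-138289462, plus strand), the kidney-rich G3 subunit of the V1 stalk, moved less than the B1 and C2 subunits. The sham libraries held 1094 to 2008 normalized counts in Polg+/+ (median 1386) and 990.2 to 1440.1 in PolgD257A (median 1163). After B-IRI they held 1089 to 1344 (median 1219) and 999 to 1449 (median 1041), and all 4 groups overlapped. B-IRI against sham gave log2 -0.23 ± 0.11 SE in Polg+/+ and -0.09 ± 0.11 SE in PolgD257A, and neither passed (limma adjusted p = 0.109 and 0.521). The difference in Polg+/+ passed only without sham Polg+/+ replicate 3 (log2 -0.30, limma adjusted p = 0.0312).

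Atp6v0d2 (chr4:19876841-19922605, minus strand) encodes the d2 subunit of the membrane part and is also expressed in macrophages and osteoclasts. Sham libraries held 701 to 1079 normalized counts in Polg+/+ (median 790.1) and 650.0 to 765 in PolgD257A (median 704). Injured Polg+/+ libraries held 666 to 775 (median 727) and injured PolgD257A libraries 455 to 704 (median 594), so that the last group was the lowest but overlapped the others. The fall passed in PolgD257A (log2 -0.28 ± 0.09 SE, limma adjusted p = 0.00957) and not in Polg+/+ (log2 -0.18 ± 0.09 SE, limma adjusted p = 0.103), and the interaction of -0.09 ± 0.13 SE did not pass (limma adjusted p = 0.682).

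Macrophage markers did not move as 1 group beside Atp6v0d2. Their summed level was 3042 to 3526 normalized counts in Polg+/+ and 3033 to 3449 in PolgD257A after sham surgery, and 3084 to 3585 and 2802 to 3600.2 after B-IRI. Of 7 markers, 4 rose and 1 fell after B-IRI in each genotype. Among all tested genes 21.4% rose and 19.8% fell in Polg+/+, and 30.2% and 30.3% in PolgD257A. Cd68, a lysosomal protein of phagocytes, was at log2 2.08 and 2.41 and Csf1r, the receptor of macrophage colony-stimulating factor, at -0.74 and -1.15. No marker of this list was at 0 in any library, and their part in the Atp6v0d2 values was not tested.

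**Figure D2:**
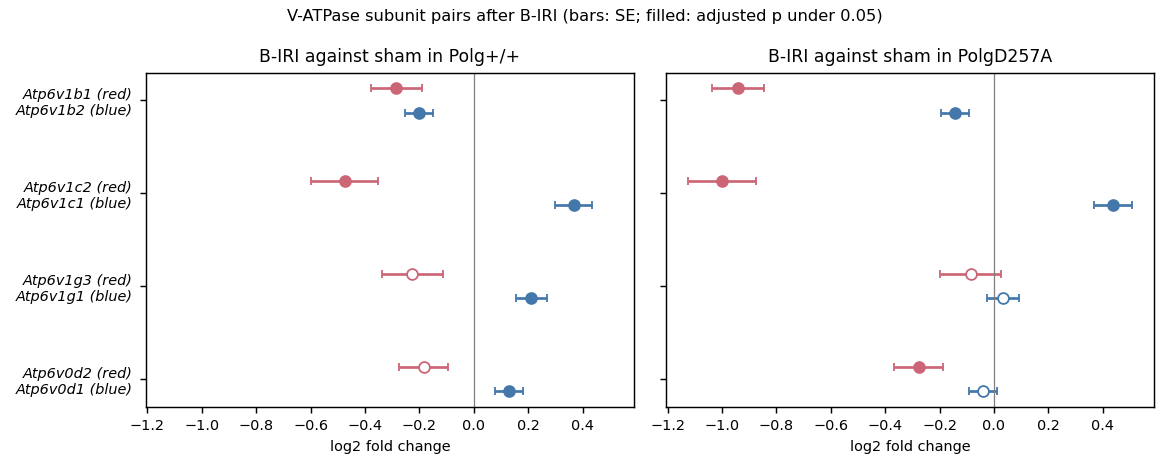
Log2 fold changes after B-IRI (horizontal axes, bars SE, all 24 libraries) of 4 kidney-rich V-ATPase subunits in red and their widely expressed partners in blue, in Polg+/+ on the left and PolgD257A on the right, with points filled where the adjusted p was under 0.05. Atp6v1c2 lies at -0.48 and -1.001 and Atp6v1c1 at 0.37 and 0.44, while Atp6v1b1 and Atp6v1b2 both lie below 0.

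The widely expressed partners of these subunits differed among themselves in course. Atp6v1c1 rose after B-IRI in both genotypes (log2 0.37 ± 0.07 and 0.44 ± 0.07 SE, limma adjusted p = 0.000131 and 4.94e-06), whereas Atp6v1c2 fell. Per kb of exon, Atp6v1c2 went from 282 ± 38.3 normalized counts in sham Polg+/+ to 126 ± 34.3 in B-IRI PolgD257A, and Atp6v1c1 from 474 ± 23.2 to 648 ± 103 (SD, n = 6 each). The log2 ratio of the C2 to the C1 subunit gene was -2.12 ± 0.23, -2.31 ± 0.09, -2.96 ± 0.17 and -3.75 ± 0.37 (SD, n = 6 each) in Polg+/+ and PolgD257A after sham surgery and in Polg+/+ and PolgD257A after B-IRI, and the injured libraries lay below the sham libraries of their genotype in both cases.

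For the B subunit, Atp6v1b2 fell by 0.20 log2 units in Polg+/+ and by 0.14 in PolgD257A after B-IRI (limma adjusted p = 0.00239 and 0.0175). The log2 ratio of Atp6v1b1 to Atp6v1b2 was -1.79 ± 0.15 and -1.87 ± 0.13 in the sham groups, and after B-IRI -1.88 ± 0.15 in Polg+/+ and -2.67 ± 0.31 in PolgD257A (SD, n = 6 each). The ratio thus moved by -0.08 after B-IRI in Polg+/+, with overlapping groups, and all injured PolgD257A libraries lay below those of both groups they were compared with. These ratios are descriptions and carry no test of their own.

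Atp6v1g1 rose in Polg+/+ (log2 0.21 ± 0.06 SE, limma adjusted p = 0.00442) and did not pass in PolgD257A (0.03 ± 0.06 SE, adjusted p = 0.636). Atp6v0d1 rose in Polg+/+ (log2 0.13 ± 0.05 SE, limma adjusted p = 0.0419), with -0.04 ± 0.05 SE in PolgD257A (adjusted p = 0.50). Over all 17 widely expressed V-ATPase subunits 7 rose and 2 fell after B-IRI in Polg+/+ (median log2 0.11), and 2 rose and 7 fell in PolgD257A (median -0.05). Of all tested genes 21.4% rose and 19.8% fell in Polg+/+, and 30.2% and 30.3% in PolgD257A. Without sham Polg+/+ replicate 6 the counts in Polg+/+ were 5 and 1, and Atp6v0d1 did not pass (adjusted p = 0.0646). Atp6v1a, the catalytic A subunit common to V-ATPases of all cells, fell in PolgD257A (log2 -0.47 ± 0.06 SE, limma adjusted p = 9.21e-08) and had -0.13 ± 0.06 SE in Polg+/+ (adjusted p = 0.0815), with an interaction of -0.34 ± 0.08 SE (limma adjusted p = 0.00525).

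Among type A genes, Slc4a1 (chr11:102348824-102366203, minus strand) had the largest fall of the 10 genes after B-IRI in PolgD257A. Sham libraries held 936 to 2613 normalized counts in Polg+/+ (median 1179) and 861 to 1226 in PolgD257A (median 977). After B-IRI the Polg+/+ libraries held 651 to 963 (median 772) and the PolgD257A libraries 113 to 655 (median 357). The injured PolgD257A libraries lay below all sham PolgD257A libraries and overlapped those of injured Polg+/+ by a few counts.

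In PolgD257A Slc4a1 fell 3.00-fold after B-IRI (log2 -1.59 ± 0.27 SE, limma adjusted p = 1.51e-05). In Polg+/+ the log2 difference was -0.74 ± 0.27 SE (limma adjusted p = 0.0319). This call was lost without sham Polg+/+ replicate 6 (log2 -0.53, adjusted p = 0.103), sham Polg+/+ replicate 1 (adjusted p = 0.0517), or B-IRI Polg+/+ replicate 2 (0.0627) or 3 (0.0664). After B-IRI Slc4a1 was 2.37-fold lower in PolgD257A than in Polg+/+ (log2 -1.24 ± 0.27 SE, limma adjusted p = 0.00104), with -0.890 (SE 0.322) in the authors' deposited table.

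The Slc4a1 interaction of -0.85 ± 0.38 SE did not pass (limma adjusted p = 0.138). It passed without sham Polg+/+ replicate 6 (log2 -1.05, adjusted p = 0.0489) and without B-IRI PolgD257A replicate 3 (log2 -1.05, adjusted p = 0.0430).

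Slc4a1 also encodes the band 3 protein of red cells, and red cell transcripts fell after B-IRI too. Of 6 red cell markers tested, 5 fell and 1 rose in each genotype (Epb42, log2 0.64 in Polg+/+, adjusted p = 0.0841 without sham Polg+/+ replicate 6), with Hba-a1, an alpha globin, at log2 -0.94 ± 0.28 and -1.07 ± 0.28 SE (limma adjusted p = 0.00861 and 0.00181). Over all tested genes 19.8% fell and 21.4% rose in Polg+/+, and 30.3% and 30.2% in PolgD257A. The summed level of the 9 markers was 2750 to 6580 normalized counts in Polg+/+ and 3108 to 16111 in PolgD257A after sham surgery, and 1726 to 2833 and 1780.0 to 3693 after B-IRI. Between the genotypes after B-IRI none of the 6 tested markers passed, against 14.3% of all genes called higher and 15.2% lower. Their log2 differences were all positive (0.08 to 0.30). Ank1, the ankyrin that anchors band 3, reached at most 13.7 normalized counts in any library. The part of red cells in the Slc4a1 values was not tested.

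Aqp6 (chr15:99601400-99605477, plus strand) encodes an anion-permeable aquaporin of the vesicles of type A cells. Sham libraries held 1046 to 2715 normalized counts in Polg+/+ (median 1266) and 926 to 1381 in PolgD257A (median 1189), and injured libraries 984 to 1278 (median 1077) and 544 to 1178 (median 892). All groups overlapped. The fall after B-IRI passed in PolgD257A (log2 -0.45 ± 0.17 SE, limma adjusted p = 0.0269) but not without sham PolgD257A replicate 1 (adjusted p = 0.0627) or B-IRI PolgD257A replicate 1 (0.0533) or 4 (0.0961). In Polg+/+ the difference was -0.35 ± 0.17 SE (limma adjusted p = 0.103), and -0.16 ± 0.13 SE without sham Polg+/+ replicate 6.

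Between the genotypes after B-IRI Aqp6 differed by -0.35 ± 0.17 SE (limma adjusted p = 0.133), and leaving out sham Polg+/+ replicate 6, which changes only the pooled spread here, gave an adjusted p of 0.0359.

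Of the genes of bicarbonate-secreting cells, Slc26a4 (chr12:31519827-31559969, minus strand) fell in both genotypes after B-IRI. The medians after sham surgery were 2091 normalized counts in Polg+/+ and 1849 in PolgD257A, and those after B-IRI were 1668 and 1197. Injured libraries ran from 1463 to 1851 in Polg+/+ and from 985 to 1369 in PolgD257A, and in each genotype they lay below all of its sham libraries. The fall after B-IRI was 1.28-fold in Polg+/+ (log2 -0.35 ± 0.06 SE, limma adjusted p = 7.64e-05) and 1.55-fold in PolgD257A (log2 -0.63 ± 0.06 SE, limma adjusted p = 3.75e-09).

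The Slc26a4 interaction of -0.27 ± 0.09 SE passed narrowly (limma adjusted p = 0.0393) and was lost in 13 of 24 fits with 1 library left out (adjusted p 0.0511 to 0.0781). These left out sham Polg+/+ replicates 2, 4, 5 and 6, sham PolgD257A replicates 2, 3 and 5, replicates 4, 5 and 6 of B-IRI Polg+/+ or B-IRI PolgD257A replicates 4, 5 and 6, and over all 24 fits the log2 value ran from -0.32 to -0.22.

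Slc4a9 (chr18:36528147-36556273, plus strand) encodes AE4, a basolateral transporter of type B cells. Sham libraries held 1910.3 to 2378 normalized counts in Polg+/+ (median 2175) and 1664 to 2157 in PolgD257A (median 1824), and injured libraries 1417 to 1954 (median 1611) and 1168 to 1721 (median 1429). Neighbouring groups overlapped throughout. The fall after B-IRI was of like size in both genotypes, with log2 -0.37 ± 0.09 SE in Polg+/+ (limma adjusted p = 0.00160) and -0.40 ± 0.09 SE in PolgD257A (limma adjusted p = 0.000324), and an interaction of -0.04 ± 0.13 SE (adjusted p = 0.887).

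After B-IRI Slc4a9 was lower in PolgD257A than in Polg+/+ (log2 -0.25 ± 0.09 SE, limma adjusted p = 0.0313). That call was lost without replicate 1 or 5 of B-IRI Polg+/+ and without replicate 1 or 4 of B-IRI PolgD257A (adjusted p 0.0881 to 0.0961).

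Insrr (chr3:87796951-87816101, plus strand) encodes the insulin receptor-related receptor, a sensor of alkaline extracellular pH found on type B cells. Sham libraries held 751 to 967 normalized counts in Polg+/+ (median 861) and 609 to 812 in PolgD257A (median 749.7). After B-IRI the Polg+/+ libraries held 516 to 732 (median 620.4) and the PolgD257A libraries 229 to 473 (median 338). The injured PolgD257A libraries were the lowest group and overlapped no other.

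Insrr was 1.36-fold lower after B-IRI in Polg+/+ (log2 -0.45 ± 0.11 SE, limma adjusted p = 0.00251) and 2.19-fold lower in PolgD257A (log2 -1.13 ± 0.11 SE, limma adjusted p = 2.70e-09), with an interaction of -0.69 ± 0.16 SE (limma adjusted p = 0.00475). It overlaps Pear1 on the opposite strand. The authors' deposited table gives Insrr -0.855 (SE 0.117) and Atp6v1c2 -0.639 (SE 0.128), beside -0.90 ± 0.11 SE and -0.72 ± 0.12 SE for PolgD257A against Polg+/+ after B-IRI here.

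**Figure D3:**
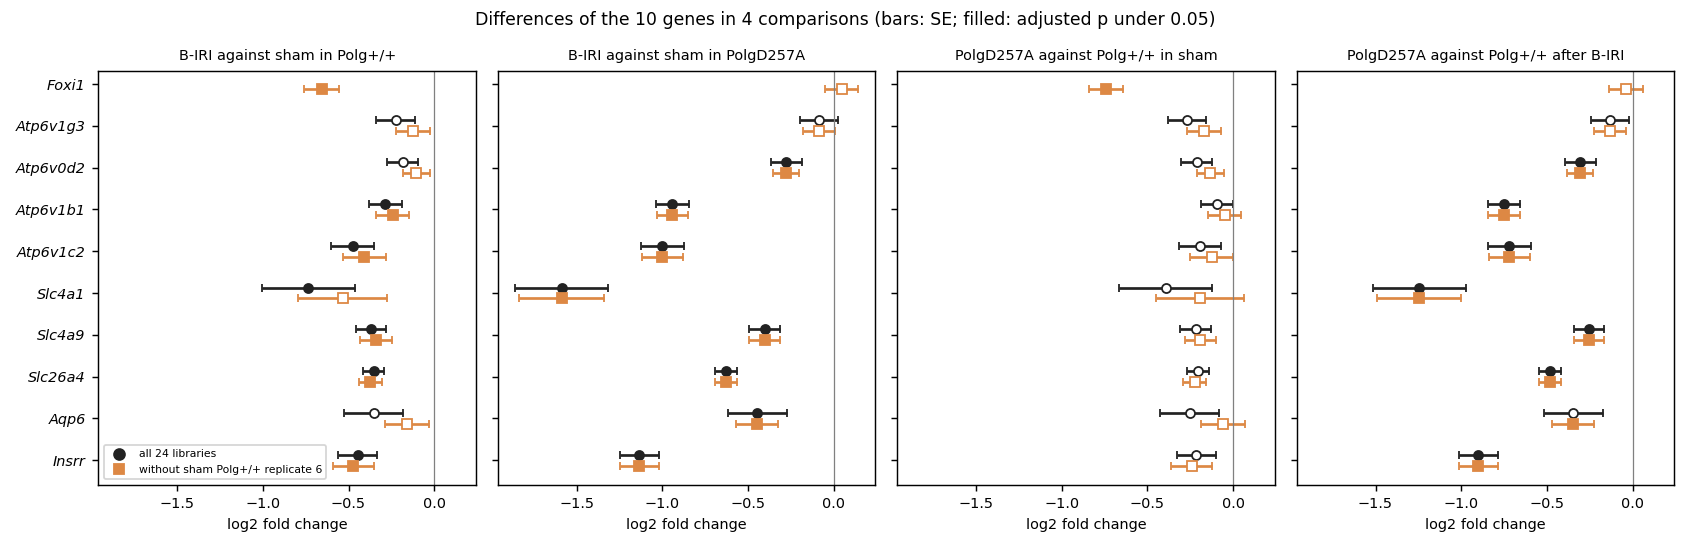
Log2 fold changes with SE bars (horizontal axes) of the 10 genes in 4 comparisons, with all 24 libraries (circles, not drawn for Foxi1) and without sham Polg+/+ replicate 6 (squares), filled where the adjusted p was under 0.05. In the genotype comparisons Foxi1 stands at -0.74 in sham and -0.04 after B-IRI, whereas Insrr and Atp6v1b1 with all libraries stand at -0.21 and -0.09 in sham and at -0.90 and -0.75 after B-IRI.

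Without sham Polg+/+ replicate 6, 6 of the 10 genes were lower after B-IRI in Polg+/+ and none higher, against 19.2% of all tested genes called lower and 20.9% called higher. With all libraries 6 of the 9 genes other than Foxi1 were lower and none higher, against 19.8% and 21.4%, and their median log2 difference was -0.35, beside -0.01 over all tested genes. In PolgD257A 8 of the 10 were lower and none higher, against 30.3% of all genes called lower and 30.2% called higher, with a median of -0.54. Foxi1 and Atp6v1g3 were the genes that did not pass there.

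Between the genotypes after B-IRI 7 were lower in PolgD257A and none higher, against 15.2% of all genes called lower and 14.3% called higher, with a median of -0.41. Foxi1, Atp6v1g3 and Aqp6 did not pass. All injured libraries lay below all sham libraries other than sham Polg+/+ replicate 6 for 4 of the 10 genes in Polg+/+, against 11.3% of all tested genes, and for 5 in PolgD257A, against 17.5%. After B-IRI all PolgD257A libraries lay below all Polg+/+ libraries for 3 of the 10, against 5.94%.

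In the interaction without sham Polg+/+ replicate 6, 4 of the 10 were lower (Atp6v1b1, Atp6v1c2, Slc4a1 and Insrr), against 8.04% of all genes, and 1 was higher (Foxi1), against 6.01%. With all libraries 4 of the 9 genes other than Foxi1 were lower, with Slc26a4 in place of Slc4a1, against 9.08%, and none was higher, against 6.87%. This count of 4 became 2 when any of 8 libraries was left out, namely sham Polg+/+ replicate 2, 4 or 5, sham PolgD257A replicate 2 or 5, replicate 4 or 5 of B-IRI Polg+/+, or B-IRI PolgD257A replicate 4, and ran from 2 to 5 over all 24.

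Foxi1 and the other 9 genes are set side by side by their log2 values. The mean log2 value of the 9 was 10.38 ± 0.20 in sham Polg+/+, 10.15 ± 0.04 in sham PolgD257A, and after B-IRI 10.002 ± 0.11 in Polg+/+ and 9.43 ± 0.31 in PolgD257A (SD, n = 6 each). Foxi1 lay -0.98 ± 0.22, -1.62 ± 0.23, -1.39 ± 0.10 and -0.86 ± 0.39 log2 units from that mean in the same order. The distance was thus widest in sham PolgD257A, where Foxi1 was low and the other 9 were not called, and in B-IRI PolgD257A its mean was close to that of sham Polg+/+ at a lower level of both. In B-IRI PolgD257A it ran from -1.40 to -0.19, the last in replicate 4. Without sham Polg+/+ replicate 6 the sham Polg+/+ distance was -1.04 ± 0.20 and the mean of the 9 was 10.31 ± 0.10 (SD, n = 5). These distances describe how the groups differ and carry no test. Their size does not compare levels between genes, since it takes no account of gene length.

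**Figure D4:**
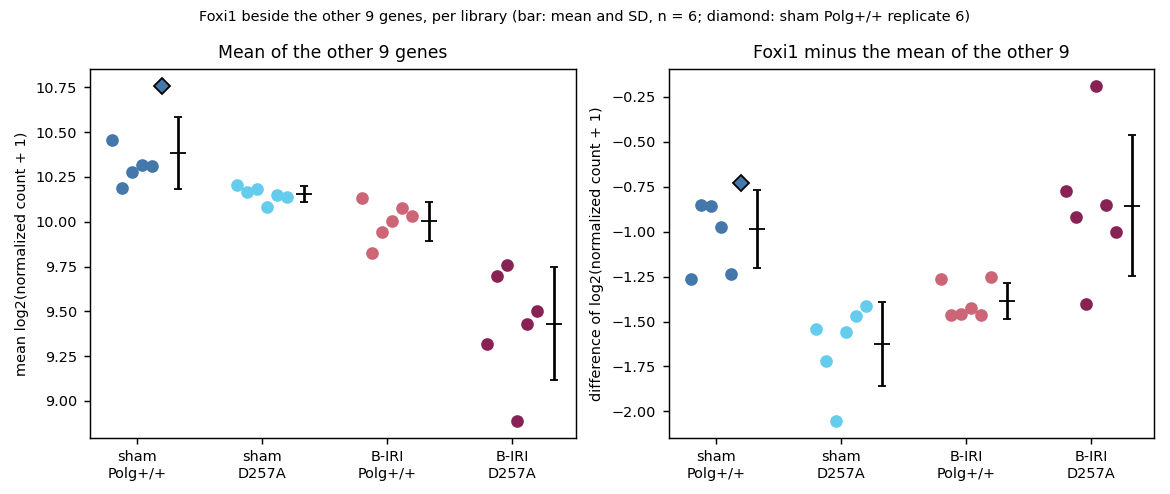
Mean log2(normalized count + 1) of the other 9 genes (left) and the log2 value of Foxi1 minus that mean (right) in each of the 24 libraries, by group along the horizontal axis, with group mean and SD as bars and sham Polg+/+ replicate 6 as a diamond. The group mean of the other 9 genes is 10.38 in sham Polg+/+ (10.31 without replicate 6) and 9.43 in B-IRI PolgD257A, and the difference is lowest in sham PolgD257A (-1.62).

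Levels can be set beside each other only per length. In sham Polg+/+, per kb of exon, Atp6v1g3 (765 ± 169 normalized counts), Slc26a4 (681 ± 42.9), Atp6v1b1 (626 ± 54.2) and Aqp6 (604 ± 258) stood highest, with spreads that overlap. Slc4a9 (337 ± 28.9), Atp6v0d2 (303 ± 48.9), Foxi1 (293 ± 76.8), Slc4a1 (283 ± 126) and Atp6v1c2 (282 ± 38.3) followed. With all libraries these were not set apart from one another by more than their spread, and Insrr was lowest (150.0 ± 14.4, SD, n = 6 each). The Foxi1 value is a description, as it includes sham Polg+/+ replicate 6. Without that library Slc4a9 was at 330 ± 26.2, Atp6v1c2 at 268 ± 17.6 and Foxi1 at 263 ± 24.7 (SD, n = 5 each). Slc4a9 then stood above Foxi1 by more than their spread, and Slc4a1, at 233, lay below Foxi1 and Atp6v1c2. The spread of Aqp6 (501 ± 55.8) no longer overlapped that of Atp6v1b1 (606 ± 27.8). In B-IRI PolgD257A Atp6v1g3 (591 ± 92.3) was still highest, Slc4a1 was at 76.7 ± 38.5 and Insrr at 59.9 ± 13.7 per kb.

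Sham Polg+/+ replicate 6 did not raise the 10 genes evenly. Against the median of the other 5 libraries of its group, Slc4a1 was at 2.35 times, Aqp6 at 2.24 times, Foxi1 at 1.62 times, Atp6v1g3 at 1.58 times, Atp6v0d2 at 1.40 times, Atp6v1c2 at 1.32 times, Atp6v1b1 at 1.18 times and Slc4a9 at 1.096 times. Slc26a4 lay below all 5 at 0.943 times, and Insrr lay within their range at 0.899 times. The mean log2 value of the type A genes Slc4a1 and Aqp6 minus that of the type B genes Slc4a9, Slc26a4 and Insrr was 0.79 in this library and -0.54 to -0.25 in the other 5.

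Further intercalated cell genes were mixed in that library, with 13 of 20 above all 5 others. Dmrt2, a transcription factor of type A cells, was at 1.91 times their median, and Hmx2, a homeobox gene enriched in type B cells, lay below all 5 at 0.906 times. Oxgr1, a receptor of type B cells, went the other way and lay above all 5 at 1.52 times. The summed level of the 8 proximal tubule markers there was 227307 normalized counts, the lowest of its group (highest 304032). That of the principal cell list was 21844, the highest of its group. What set this library apart was not tested.

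**Figure D5:**
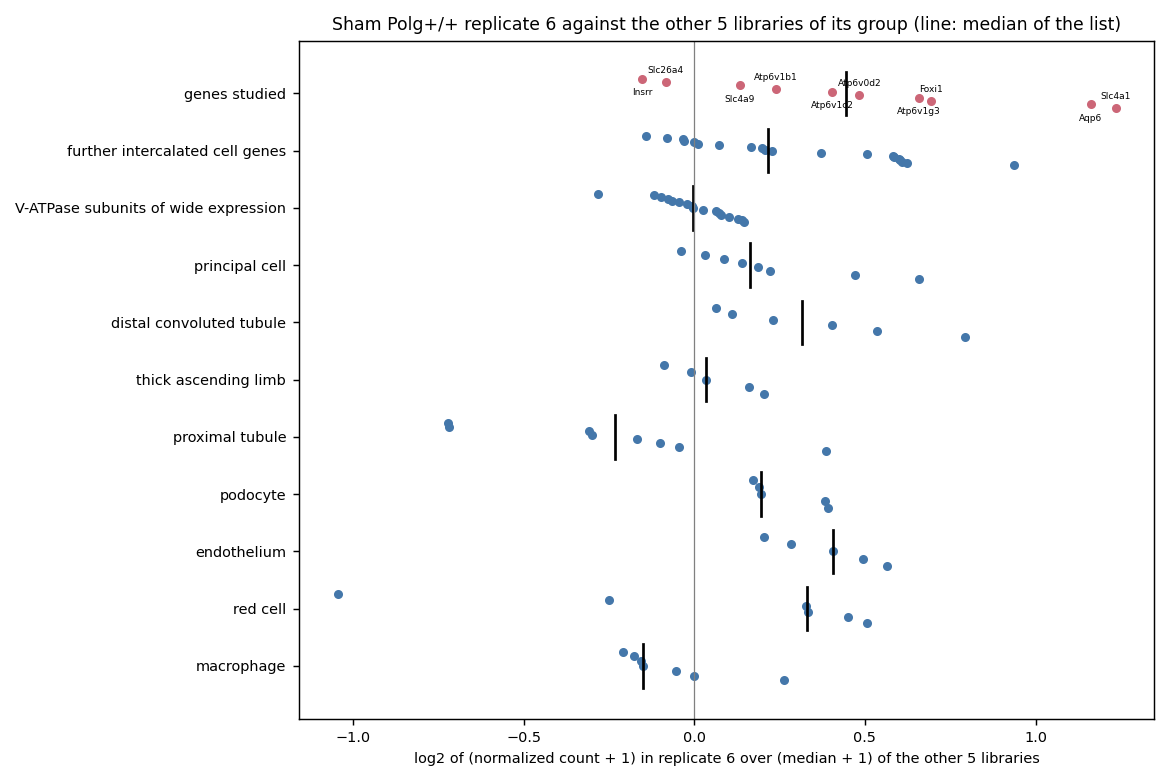
Log2 ratio of sham Polg+/+ replicate 6 to the median of the other 5 libraries of its group (horizontal axis) for each tested gene of 11 lists (1 row each), with a line at the median of the list. The genes studied run from 0.899 times (Insrr) to 2.35 times (Slc4a1), and 5 of 8 proximal tubule markers lie below all 5 other libraries.

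Other genes of intercalated cells, taken from a textbook list of 20, fell in part. After B-IRI in Polg+/+ 8 of 20 fell and none rose (median log2 -0.23), against 19.8% of all genes lower. Without sham Polg+/+ replicate 6 the count was 3 of 20, a smaller share than the 19.2% of all genes. In PolgD257A 12 fell and none rose (median -0.51), against 30.3% of all genes lower. Hmx2 fell in both (log2 -0.53 ± 0.10 and -0.82 ± 0.10 SE, limma adjusted p = 0.000116 and 6.92e-08), as did Oxgr1, the alpha-ketoglutarate receptor of type B cells (-0.42 ± 0.12 and -0.85 ± 0.12 SE), and Car12, a membrane carbonic anhydrase (-0.25 ± 0.07 and -0.65 ± 0.07 SE).

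Bsnd, the barttin subunit of the basolateral chloride channels, fell in PolgD257A (log2 -0.85 ± 0.12 SE, limma adjusted p = 1.11e-06) with an interaction of -0.69 ± 0.17 SE (limma adjusted p = 0.00761). Bsnd is also expressed in the thick ascending limb. Atp6v0a4, the kidney-rich a4 subunit of the V-ATPase, did not pass in any comparison, with log2 0.00 ± 0.06 SE after B-IRI in Polg+/+ and -0.12 ± 0.06 SE in PolgD257A (limma adjusted p = 0.988 and 0.0678). Dmrt2 had a positive interaction past the threshold (0.61 ± 0.21 SE, limma adjusted p = 0.0494), the sign of Foxi1, and lost it without sham Polg+/+ replicate 6 (0.46, adjusted p = 0.0770).

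Regulators of collecting duct cell fate did not fall as a group. Of 10 tested, 1 rose and 1 fell after B-IRI in Polg+/+, against 21.4% and 19.8% of all genes. Without sham Polg+/+ replicate 6 these counts were 1 and 0, against 20.9% and 19.2%. In PolgD257A 5 rose and 1 fell, against 30.2% and 30.3%. Leaving out that library, which changes only the pooled spread in PolgD257A, left 4 that rose. Hes1, a Notch target that favours the principal cell fate, rose in both (log2 0.34 ± 0.09 and 0.48 ± 0.09 SE, limma adjusted p = 0.00378 and 6.81e-05). Notch1 (0.48 ± 0.12 SE) and Notch2 (0.29 ± 0.07 SE) rose in PolgD257A (limma adjusted p = 0.00124 and 0.000899), and the interaction passed for Notch2 (0.32 ± 0.10 SE, adjusted p = 0.0293).

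Tfcp2l1, a transcription factor that acts with Foxi1 in intercalated cells, did not pass in any comparison (log2 -0.10 ± 0.09 and -0.12 ± 0.09 SE after B-IRI). Foxi2 and Foxi3, the other genes of the Foxi family, were at 0 in all 24 libraries.

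Principal cells share the collecting duct with the intercalated cells, and their markers were counted in the same way. Of 8 tested, 1 rose and none fell after B-IRI in Polg+/+ (median log2 0.06), against 21.4% and 19.8% of all genes, and 5 fell in PolgD257A (median -0.37), against 30.3%. The interaction passed for 2 of the 8, both lower, against 9.08%. Aqp2, the vasopressin-regulated water channel, rose in Polg+/+ (log2 0.57, limma adjusted p = 0.0146). Scnn1a, a subunit of the epithelial sodium channel, fell in PolgD257A (log2 -0.63) with an interaction of -0.55 (limma adjusted p = 0.00405).

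The summed level of the principal cell list was 16375 to 21844 normalized counts in Polg+/+ and 15608 to 18943 in PolgD257A after sham surgery, and 19041 to 23552 and 12091 to 20527 after B-IRI. The sum over the 10 genes studied was 12602 to 18542, 11335 to 12382, 9557 to 11885 and 6019 to 9263 in the same order. In Polg+/+ the sum of the 10 genes after B-IRI thus lay below all sham libraries, while the principal cell sum of the injured libraries overlapped that of the sham libraries at its upper end. Of 6 distal convoluted tubule markers, 5 fell and none rose after B-IRI in Polg+/+, against 19.8% and 21.4% of all genes. Without sham Polg+/+ replicate 6, 3 fell and 1 rose, against 19.2% and 20.9%. In PolgD257A all 6 fell (median log2 -0.95), against 30.3%. Of 5 thick ascending limb markers, 1 fell and 1 rose in Polg+/+, and 4 fell in PolgD257A (median -0.68). The interaction was lower for 5 of the 6 and 4 of the 5, against 9.08%.

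Of 5 markers of injured tubules, 4 were higher in B-IRI PolgD257A than in B-IRI Polg+/+ and 1 did not pass, against 14.3% of all genes called higher. Havcr1, the tubule injury marker KIM-1, held 5441 to 24888 normalized counts in B-IRI Polg+/+ and 25923 to 36062 in B-IRI PolgD257A, against 112 to 198 in the sham libraries, and the injured groups did not overlap. The summed proximal tubule markers were 156768 to 213511 in B-IRI Polg+/+ and 101307 to 132540 in B-IRI PolgD257A, against 227307 to 330197 in sham. The part of these shifts in the levels of the 10 genes was not tested.

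The genes whose pattern was most like that of Foxi1 were not its companions in intercalated cells. Over the 23 libraries without sham Polg+/+ replicate 6, the largest Pearson correlations of log2 values with Foxi1 were those of Josd1 (0.779), Slco3a1 (0.777), Gm49395 (0.771), Gm48795 (0.768), 1700022N22Rik (0.758), Gm45170 (0.739), Adh7 (0.732) and Xkr6 (0.722). Of these, Slco3a1 and Gm45170 lie on chromosome 7, 5.17 and 0.156 Mb from Polg. The others lie on other chromosomes, and Foxi1 itself lies on chromosome 11. The share of all tested genes this near to Polg was not counted, and a part of linkage was not tested. The best of the other 9 genes was Slc4a9, with 0.490 at rank 440.

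Over all 24 libraries the likeness list was led by Nat8f4 (0.755), Fbxo46 (0.740), Osgin1 (0.722), Gm45170 (0.719), Zfp263 (0.719), Zfp12 (0.718), Dmrt2 (0.717) and 1700022N22Rik (0.713), and Atp6v1g3 stood at rank 25 with 0.671. With that library Dmrt2 entered and 7 of the other 9 genes stood at a higher rank, while Slc26a4 went from rank 523 to 776 and Insrr from 1897 to 1994. These correlations are descriptions over libraries that share 4 group means, and they carry no test. The list over all 24 libraries also uses the Foxi1 value named in choosing the genes. As 7 of the other 9 genes were also highest in that library, their higher ranks there add nothing beyond those values.

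1700022N22Rik had the group pattern of Foxi1 at a lower level, with 61.3 ± 4.31 normalized counts in sham Polg+/+ and 42.0 ± 4.49 in sham PolgD257A, and after B-IRI 42.5 ± 2.41 in Polg+/+ and 41.9 ± 9.16 in PolgD257A (SD, n = 6 each). It passed the test after B-IRI in Polg+/+ (log2 -0.52 ± 0.13 SE, limma adjusted p = 0.00177) and not between the sham genotypes (-0.54 ± 0.13 SE, adjusted p = 0.110). Its values chose it, so that they are given as a description.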

How the data were processed

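Kidney RNA (RNeasy) of 24 mice, 6 per group, went into NEBNext Ultra II RNA libraries, per the protocols in the labels. FastQC, STAR, SAMtools, featureCounts and DESeq2 and the build GRCm38.p6 are named in the submitters' processing notes, without versions. The deposited table holds signal values: gene counts that the authors had divided by a size factor for each library (0.740 to 1.31). Multiplying back gave whole reads for 100% of values within 0.001. A second table, as deposited by the authors, gives shrunken log2 fold changes, their SE and s-values (p-value-like measures of a wrong sign) for 1401 genes. Its signs equal those of PolgD257A against Polg+/+ after B-IRI for 1320 of the 1324 genes shared with the genes tested. That count covers only genes the authors listed, and both sides rest on the same libraries. Columns named Ctrl, Mut and SurgBIR were read as Polg+/+, PolgD257A and B-IRI, which no source used here states and on which every comparison rests.

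Limma-trend (R 4.3.3, limma 3.58.1) was fitted to log2(normalized count + 1) of the 17430 genes that reached 10 normalized counts in 6 or more libraries, with 1 mean per group over all 24 libraries. Foxi1 tests come from the same fit without sham Polg+/+ replicate 6, whose Foxi1 value was used in choosing the genes. The alternatives below kept that library for Foxi1 too, apart from the fit that left it out. The pseudocount of 1 understates changes of low genes. P-values are two-sided and Benjamini-Hochberg adjusted over all tested genes per contrast, with a threshold of 0.05, and measure only the spread between these samples. Each surgery was compared within each genotype and each genotype within each surgery, and the interaction was tested. Tried instead were a pseudocount of 0.5 or 5, a minimum of 50 normalized counts or none, TMM or quantile scaling, fits to the compared groups alone, a replicate block, count models on the recovered reads (DESeq2 1.42.0, edgeR 4.0.16) and leaving out each library. The models were tested on simulated data.

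The 10 genes and all lists were chosen with earlier results of these data known. Of each other list, up to 4 genes with the smallest adjusted p or moving against the list could be named, with the 4 widely expressed partners, Havcr1, Lcn2 and the 8 genes most like Foxi1. Atp6v1a, Atp6v0a4, Tfcp2l1, Notch1, Notch2, Hmx2 and Ank1 were partly named after their values were seen. Positions and exon lengths are from GENCODE M21 (GRCm38), matched on gene IDs without version, and promoters from RefSeq (GRCm38.p6). Lists of the thick ascending limb, inner medulla and urothelium, and adrenal gland were measured as further checks: 1 of 5, 0 of 6 and 0 of 1 tested markers were highest in sham Polg+/+ replicate 6, and the adrenal Cyp11b2 was at 0 in all 24 libraries.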

Additional observations from a re-analysis of the deposited data

Results flagged for a closer look

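Foxi1 in sham Polg+/+ was left out of Dixon's gap test, since its high value there chose the genes. Of the other 39 gene-by-group sets of 6 libraries, 5 held an extreme value by that test. Of these, 3 came from sham Polg+/+ replicate 6, the highest of its group for Atp6v0d2 (1079 normalized counts), Slc4a1 (2613) and Aqp6 (2715). The others were Atp6v1g3 in B-IRI PolgD257A replicate 2 (1449 normalized counts) and Aqp6 in B-IRI Polg+/+ replicate 6 (1278), each the highest of its group. The sets share libraries, and sham Polg+/+ replicate 6 was named in choosing the genes. The count of 5 therefore cannot be set against the rate of a test on independent sets.

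The interaction test of limma called 5 of the 10 genes. Foxi1 was tested without sham Polg+/+ replicate 6 and the others with all libraries. With all libraries 9.08% of all tested genes were called lower and 6.87% higher, and without that library 8.04% and 6.01%. On the log2 scale the interactions called were 0.70 for Foxi1 (without sham Polg+/+ replicate 6), -0.66 for Atp6v1b1, -0.53 for Atp6v1c2, -0.27 for Slc26a4 and -0.69 for Insrr. The calls of Atp6v1c2 and Slc26a4 were lost in 14 and 13 of 24 fits with 1 library left out. For Slc26a4 these included the fit without sham Polg+/+ replicate 6 (limma adjusted p = 0.0664), where Slc4a1 passed (limma adjusted p = 0.0489).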

How the results depend on the processing

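Among the alternatives other than leaving out a library, 478 of the values kept their direction and their side of the threshold, 9 kept the direction and lost the call, and 3 changed sign. With a library left out, 1148 kept both, 39 lost the call, 4 gained one and 9 changed sign. These counts include Foxi1. Its values here used sham Polg+/+ replicate 6, unless that was the library left out, and are given as descriptions. The count of genes lower in the interaction was 4 and became 2 without a filter on low counts, where more genes share the adjustment, and ran from 2 to 5 with a library left out. No value that changed sign had passed the test. These were Foxi1 after B-IRI in PolgD257A with quantile normalization (-0.0337), the Aqp6 interaction with edgeR (0.0114) and DESeq2 (0.0111), and, with a library left out, Foxi1 after B-IRI in PolgD257A (-0.0336 to 0.0903), Foxi1 between genotypes after B-IRI (-0.0895 to 0.0115), the Slc4a9 interaction (-0.0956 to 0.0162) and the Aqp6 interaction (-0.288 to 0.0349).

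The replicate numbers did not pair the libraries: same-numbered libraries deviated together with correlations of -0.326 to 0.174, and at most 1 of 6 correlated best with its own number. With the replicate block the count of genes lower in the interaction was 3, and Atp6v1c2 lost its call there (adjusted p = 0.0518). Calls lost elsewhere were those of Slc4a1 after B-IRI in Polg+/+ without a filter (adjusted p = 0.0569), Aqp6 after B-IRI in PolgD257A with DESeq2 (0.0546), Slc4a9 between genotypes after B-IRI without a filter (0.0590) and with only the libraries compared (0.0740), Atp6v1c2 in the interaction without a filter (0.0761) and with edgeR (0.0507), and Slc26a4 in the interaction without a filter (0.0758) and with quantile normalization (0.0560). The cause was not tested.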
